A study of Mus musculus with 12 samples.

Results

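The first neural differentiation replicate of each genotype was set against the later ones, in anterior neural progenitor cells (AntNPC) made from wild-type (WT) and EED-/- mouse embryonic stem cells (mESC). The libraries were chosen by their numbers: replicate 1 is the library whose title carries no number, and replicates 2 to 4 carry theirs. The comparison holds 8 of the 12 libraries of the series, 2 first and 6 later, with 1 first and 3 later libraries in each genotype. The split was selected on the expression values of these same libraries, since replicate 1 stood apart in them. Every difference between first and later libraries, and every contrast of such differences, is therefore given as a description. Where a limma threshold is applied to them below, it only sorts genes by their difference relative to the residual spread. No p-value is printed or read as evidence.

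Polyadenylated RNA was sequenced, and each gene's level was deposited as FPKM, that is fragments scaled by transcript length and sequencing depth. The WT cells were the E14 line and the EED-/- cells a line made earlier, with 1 line per genotype. Which EED allele that line carries is not stated in the labels, and EED-/- is used below as the label. Both lines went through the same 5-day differentiation in N2B27, a medium without serum, and received bFGF (10 ng/ml) until day 3 and the WNT pathway inhibitor Xav939 (5 uM) from day 2 on. The 4 mESC libraries, 2 of each genotype, came from cells in serum with LIF on gelatin. The labels do not say whether replicates were separate cultures, so the p-values below reflect only how far these samples spread, and that spread may be technical. Culture, RNA, library, sequencing run and processing of the first and later libraries cannot be told apart.

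EED is a core subunit of Polycomb repressive complex 2 (PRC2), which methylates histone H3 at lysine 27 and keeps many developmental genes silent. Cells leaving the pluripotent state pass through a formative state like that of the early epiblast before they take on a neural fate. In the neural plate, low WNT and FGF signals favour forebrain identity, whereas WNT and FGF ligands from the border between midbrain and hindbrain maintain the genes of that region. Where a gene has a near-identical copy elsewhere in the genome, short reads can match both places, and the level reported for each depends on how such reads are handled.

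The later libraries were very alike. Over the 12829 genes with at least 1 FPKM in at least 2 of the 8 libraries, log2(FPKM + 1) values of replicates 2 to 4 correlated at 0.996 in WT and at 0.995 to 0.996 in EED-/-, and replicate 1 correlated with them at 0.956 to 0.957 in WT and 0.949 to 0.954 in EED-/-. Where the first and later libraries of each genotype had their own means, the residual spread came from replicates 2 to 4 alone. There the lone first library of a genotype is assumed to vary as they do. In the fit with genotype as a term, disagreement between the genotypes in the first-minus-later difference also enters the spread. The sum of FPKM ran from 455577 to 469864 in the first and from 516187 to 542958 in the later libraries, and read depth is unknown. All 13 AntNPC markers, among them Sox1, Sox2 and Otx2, reached 1 FPKM in every WT AntNPC library, and 12 or 13 did in the EED-/- libraries. Their summed level was 610 FPKM in the first and 648 to 702 in the later WT libraries, and 226 against 185 to 190 in EED-/-. The mESC markers summed to 66.2 FPKM in the first against 33.2 to 39.4 in the later WT libraries, and to 311 against 236 to 270 in EED-/-, so pluripotency transcripts remained in the EED-/- progenitors of both sets. Eed itself was at 42.0 FPKM in the first and 54.7 to 63.4 in the later WT libraries, and at 182 and 171 to 202 in the libraries labelled EED-/-. Its level goes against a loss of the transcript in that line. Without the allele it does not check the labels.

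Genes were sorted into calls where limma's moderated test gave a Benjamini-Hochberg adjusted p under 0.05 and the difference was at least 1 on the log2(FPKM + 1) scale, a scale that understates the change of low genes. With genotype as a term, 257 genes (2.00% of those tested) were higher and 88 (0.686%) lower in the 2 first than in the 6 later libraries. With a pseudocount of 0.1 (main setting 1) 167 genes were lower. Without the EED-/- first library 240 were, since that fit leaves only the WT difference, given next. In WT alone, 352 genes (2.74%) were higher and 240 (1.87%) lower in replicate 1. In EED-/- alone, 374 (2.92%) were higher and 132 (1.03%) lower. The calls met in 202 genes higher and 34 lower in both genotypes. Another 134 genes were higher and 185 lower in WT only, and 136 higher and 61 lower in EED-/- only, each of them also past the threshold of the interaction described further on. Across all tested genes the first-minus-later differences of the 2 genotypes, which share no library, correlated at r = 0.57. Over the 10416 genes whose sequence is nearly unique, as defined next, r was 0.23.

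Many of the genes higher in both genotypes have copies elsewhere in the genome. For every gene the share of the 50-base stretches (50-mers) of its longest annotated transcript that also occur in another, non-overlapping gene was computed from GENCODE M21, a measure that the choice of libraries did not use. At least 50% of 50-mers were shared in 337 tested genes (2.63%), and 153 of the 202 genes higher in both genotypes (75.7%) were among them. Of the 34 genes lower in both, 5 were. In the class with at least 50% shared, 173 of 337 genes (51.3%) were called higher in the first libraries, against 49 of 11784 genes (0.416%) with less than 10%. The median difference was 0.94 in WT and 1.32 in EED-/- in the first class, and 0.05 and 0.01 in the second. Among 109 tested pseudogenes, 61 were higher and 3 lower, beside 2.00% and 0.686% of all tested genes. A gene that reached 1 FPKM in both first libraries alone passed the filter. The copied genes and pseudogenes tested can therefore include genes that entered only through the libraries where they are high. Such genes raise the shares and medians given here, and how many there were was not counted. The number of copied genes that reached 1 FPKM was 321 and 359 of 1036 in the first libraries against 216 to 242 in the later ones. Copied genes nevertheless took similar shares of the summed FPKM, 9.84% and 9.46% in the first and 9.27% to 10.0% in the later libraries. The labels do not state the alignment and counting settings of each set of libraries, and their part in these differences was not tested.

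Coding bases of 3 pairs show how little such copies differ. They were read from the GENCODE M21 transcripts (GRCm38) and are printed 5′ to 3′ in 90-base windows aligned without gaps, with bases that differ within a pair in capitals. The first pair is the mitochondrial mt-Co3 (chrM:8607-9390, plus strand), a subunit of cytochrome c oxidase, and Gm28437, an unprocessed pseudogene in the nuclear genome (chr1:24613189-24613971, minus strand). The second is Gstp1 (chr19:4035407-4037985, minus strand) and Gstp2 (chr19:4040285-4046023, minus strand), neighbouring glutathione S-transferases. The third is Rnaset2a (chr17:8115445-8148097, minus strand) and Rnaset2b (chr17:6970634-7011299, plus strand), a pair of ribonuclease genes.
mt-Co3: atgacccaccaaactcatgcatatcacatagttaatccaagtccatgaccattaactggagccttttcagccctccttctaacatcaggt
Gm28437: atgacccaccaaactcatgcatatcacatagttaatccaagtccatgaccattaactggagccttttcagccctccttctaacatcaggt
Gstp1: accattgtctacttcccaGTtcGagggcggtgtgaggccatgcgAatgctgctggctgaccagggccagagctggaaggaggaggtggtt
Gstp2: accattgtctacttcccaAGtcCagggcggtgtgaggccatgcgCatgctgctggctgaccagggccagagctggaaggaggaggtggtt
Rnaset2a: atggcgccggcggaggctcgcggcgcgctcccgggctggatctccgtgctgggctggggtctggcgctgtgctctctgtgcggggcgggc
Rnaset2b: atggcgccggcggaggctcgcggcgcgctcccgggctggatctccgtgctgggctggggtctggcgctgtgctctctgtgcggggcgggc
The mt-Co3 and Gm28437 sequences had 0 differences over 783 aligned bases, the Rnaset2 pair 0 over 777, and the Gstp pair 12 over 630 (98.1% identity), 4 of them in the window shown.

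Mitochondrial mRNAs with nearly full-length nuclear copies were high in the first libraries and low in the later ones. The 13 protein-coding genes are transcribed from the same small genome, and 5 of them (mt-Co2, mt-Co3, mt-Atp6, mt-Nd3 and mt-Nd4l) share at least 90% of their 50-mers with nuclear pseudogenes. The WT libraries had mt-Co3 at 1288 FPKM in replicate 1 and at 0.3, 0.2 and 0.5 in replicates 2 to 4. The EED-/- libraries had it at 1292 and at 0.3, 0.4 and 0.2. The first and later libraries were thus far apart, and nearly equal across genotypes within a set. mt-Atp6, a subunit of the ATP synthase, was at 1360 and 1421 in the first and 0.5 to 1.7 in the later libraries. mt-Nd4l, of respiratory complex I, was at 680 and 720 against 25.6 to 35.1. Of the 4 genes with no shared 50-mer, 2 had the opposite order in both genotypes. mt-Cytb, of complex III, was at 1322 and 1284 in the first and 2652 to 3614 in the later libraries, and mt-Nd1 at 1357 and 1516 against 2093 to 2894. The 2 genes with intermediate shares did not follow the first 5. mt-Co1, with 51.1% shared, was lower in the first libraries, at 2358 and 2045 against 4625 to 6168, and mt-Nd4, with 62.2% shared, was 1.11 times as high in WT and 1.54 times in EED-/-. The remaining pair with no shared 50-mer were each lower in the first library of 1 genotype and overlapped between sets in the other. mt-Nd6 was at 779 against 850 to 1154 in WT, and at 850, within 802 to 908, in EED-/-. mt-Atp8 was at 2662, within 2475 to 7436, in WT, and at 2179 against 6047 to 7081 in EED-/-.

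**Figure D1:**
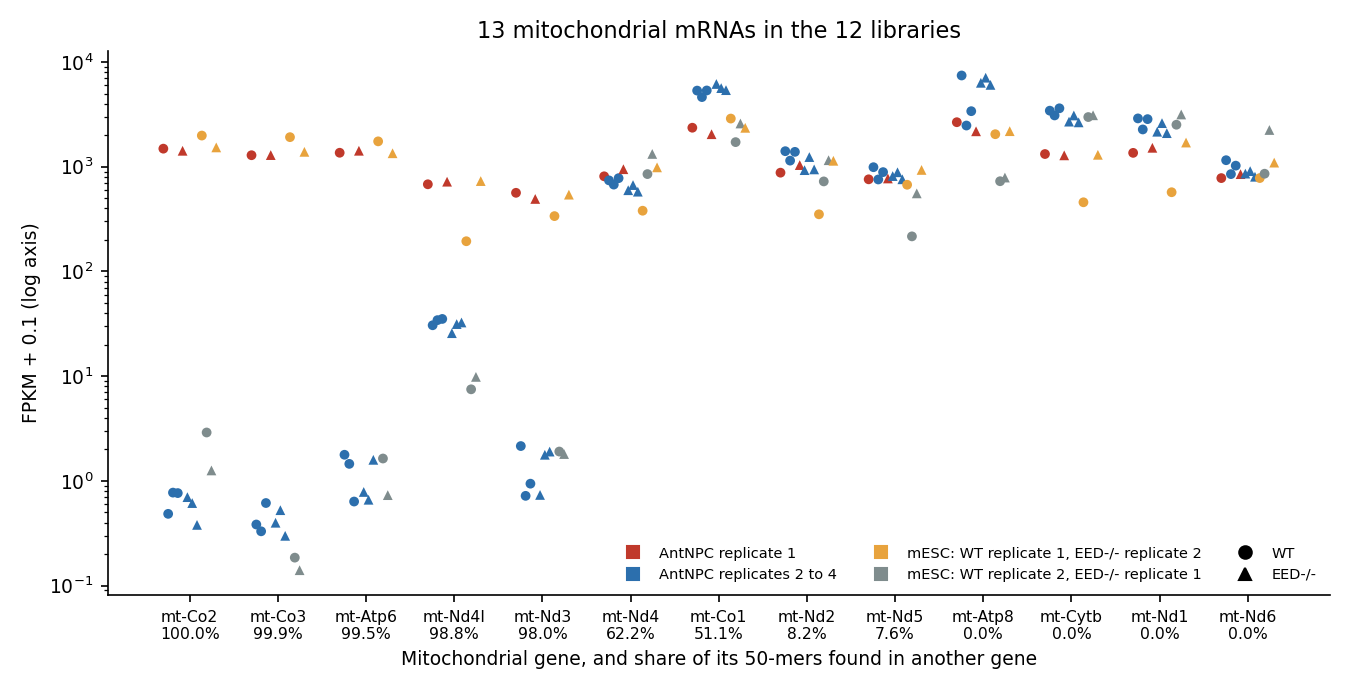
FPKM + 0.1 (log axis) of the 13 mitochondrial mRNAs in each of the 12 libraries, ordered by the share of a gene's 50-mers found in another gene (under each name); circles are WT, triangles EED-/-. The 5 genes at the left, with 98.0% to 100% shared, are high in both first AntNPC libraries (red) and low in the 6 later ones (blue). In mESC they are high in WT replicate 1 and EED-/- replicate 2 (orange) and low in WT replicate 2 and EED-/- replicate 1 (grey). The mESC colours were grouped by these values, and in EED-/- they run against the replicate numbers.

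Copied nuclear genes were also higher in the first libraries. Gstp2 was at 21.4 FPKM in WT replicate 1 against 0.3 to 0.4 in later WT libraries, and at 28.4 against 0.8 to 1.9 in EED-/-. Its partner Gstp1 was at 81.1 against 53.4 to 60.1 in WT and 92.3 against 57.0 to 58.3 in EED-/-. Both partners were higher in the first libraries, and the sum of the pair was 102 and 121 FPKM in the first and 53.7 to 60.5 in the later libraries. Rnaset2b was at 22.9 and 21 against 0.03 to 0.2, and Rnaset2a at 23.5 and 19.1 against 3.0 to 5.6. Amd2, a copy of Amd1 that encodes the polyamine enzyme S-adenosylmethionine decarboxylase, was at 16.8 and 21.3 against 1.8 to 2.3, and the Amd pair together at 70.8 and 74.5 against 23.5 to 26.5. Pgk1-rs7, whose 50-mers all occur in the glycolytic gene Pgk1 or another gene, was at 34.4 and 86.5 against 1.9 to 4.0. Dynlt1f and Mfap1b, each with at least 62% of 50-mers shared, were likewise higher in both first libraries.

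Some large shared differences lay in genes with few or no shared 50-mers. Hspa14 (GRCm38 chr2:3504527-3512790), an Hsp70 relative bound to ribosomes, has no shared 50-mer and was at 66.8 FPKM in WT replicate 1 against 1.7 to 1.9, and at 85.1 in EED-/- replicate 1 against 1.1 to 1.3, a difference of 4.57 ± 0.09 (SE) in WT and 5.29 ± 0.09 in EED-/- on the log2(FPKM + 1) scale. Cd59b, a complement regulator, was at 25.2 and 33.8 against 1.1 to 3.5, and shares 9.37% of its 50-mers with its neighbour Cd59a or another gene. Usp50, a predicted ubiquitin protease with 13.6% of its 50-mers shared, was at 22.7 and 44.4 against 2.6 to 4.0.

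**Figure D2:**
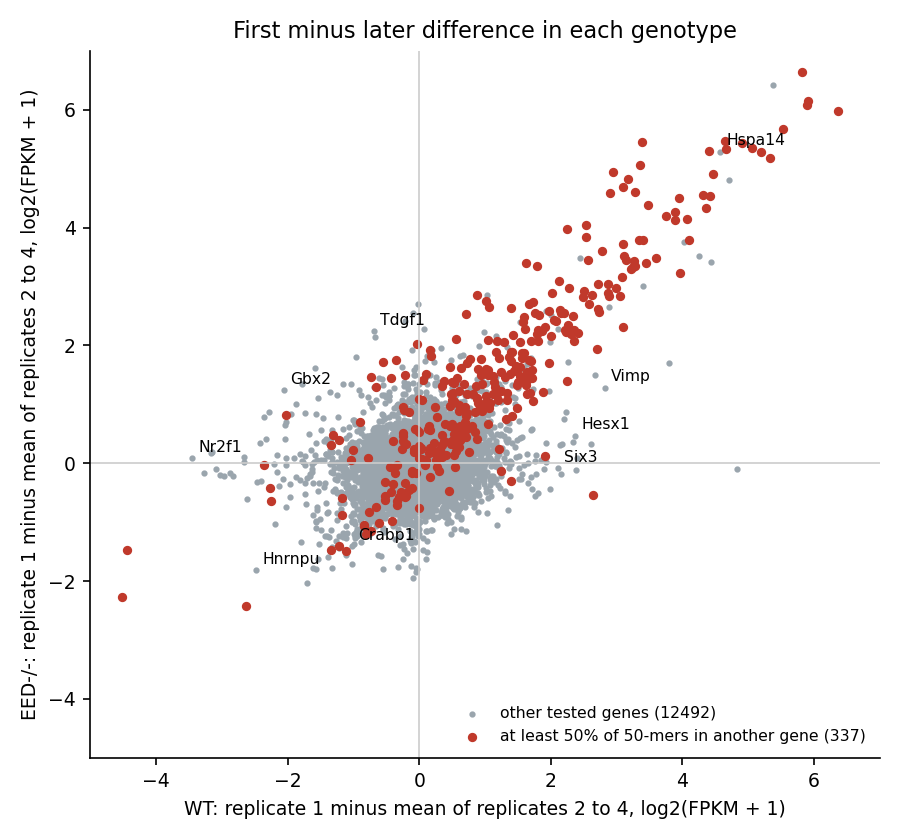
Replicate 1 minus the mean of replicates 2 to 4 on the log2(FPKM + 1) scale, WT on the x axis and EED-/- on the y axis, 1 point per tested gene; red points are the 337 genes with at least 50% of their 50-mers in another gene, and 7 genes lie outside the axes. Most red points follow the diagonal in the upper right, whereas Six3, Hesx1, Nr2f1 and Gbx2 lie off it, along the WT axis or across quadrants.

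The 4 mESC libraries were not used to choose the split, and their replicate numbers did not follow the same division. mt-Co3 was at 1916 FPKM in WT mESC replicate 1 and 0.1 in replicate 2, but listed at 0.0 in EED-/- mESC replicate 1 and at 1387 in replicate 2. Hspa14 was at 83.0 and 0.7 in WT mESC replicates 1 and 2, and at 0.6 and 93.7 in EED-/- mESC. Pgk1-rs7 was at 72.2 and 1.9 in WT mESC and 1.6 and 66.4 in EED-/- mESC. By these genes the mESC library titled 2 in EED-/- resembles the first libraries, and the one without a number resembles the later ones. Of the 202 genes higher in both AntNPC genotypes, 147 were at least 2-fold higher (log2(FPKM + 1) difference of 1) in WT mESC replicate 1 and at least 2-fold lower in EED-/- mESC replicate 1. None showed the reverse, and over all tested genes 1156 did the first and 551 the second. Of the 34 genes lower in both AntNPC genotypes, 22 were at least 2-fold lower in WT mESC replicate 1 and 2-fold higher in EED-/- mESC replicate 1. None of the 34 showed the reverse. The median replicate 1 minus 2 difference of the genes with at least 50% shared 50-mers was 1.06 in WT mESC and -1.31 in EED-/- mESC. Fitted as numbered, with genotype as a term and all 12 libraries giving the spread, mESC replicate 1 differed from replicate 2 in 12 genes higher (0.0877% of 13678 tested) and 18 lower (0.132%) by limma. That test averages the 2 genotypes, in which these genes moved in opposite directions.

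**Figure D3:**
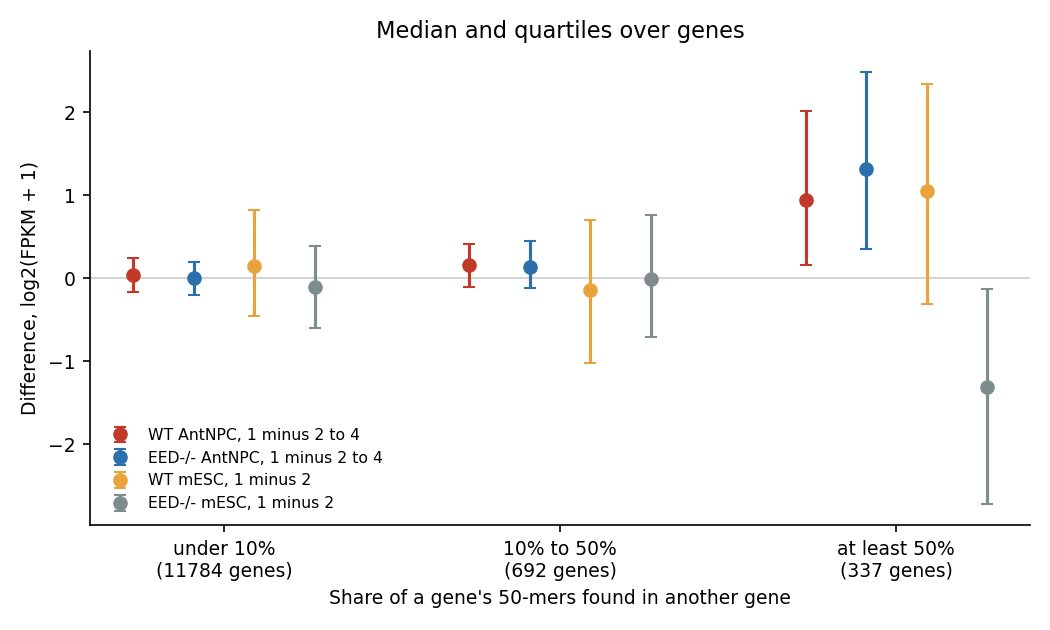
Median (point) and quartiles (bars) over genes of the replicate 1 minus later difference on the log2(FPKM + 1) scale, by the share of a gene's 50-mers found in another gene, for WT and EED-/- AntNPC (replicate 1 minus 2 to 4) and WT and EED-/- mESC (replicate 1 minus 2). The class with at least 50% shared sits at 0.94 and 1.32 in AntNPC, 1.06 in WT mESC and -1.31 in EED-/- mESC, and the other classes lie close to 0.

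Ribosomal protein genes were among those lower in the first libraries. Of 83 tested, 21 were called lower and 1 higher with genotype as a term, beside 0.686% and 2.00% of all tested genes. The medians were -0.71 in WT and -0.95 in EED-/-, beside 0.06 and 0.02 over all tested genes. Ribosomal protein genes took 14.4% and 11.6% of the summed FPKM in the first and 19.6% to 23.7% in the later libraries. In mESC they took 16.8% in WT replicate 1 and 34.6% in WT replicate 2. In EED-/- mESC the order was reversed, with 26.9% in replicate 1 and 11.2% in replicate 2. Rps29, a protein of the small subunit, was at 929 and 675 FPKM against a mean of 2881 in later WT and 2332 in later EED-/- libraries. Eef1a1, the elongation factor that brings aminoacyl-tRNA to the ribosome, was at 2495 and 2105 FPKM against 5718 to 6476. These differences were smaller with quantile normalization, which brought the ribosomal medians to -0.11 and -0.24. The difference of Eef1a1 went from -1.41 to -0.33 and its call was lost, as were those of Rps27 (-1.59 to -0.69), Rps28 (-1.49 to -0.85) and Rpl13a (-1.37 to -0.53), while Rps29 kept its call (-1.70 to -1.01). Eef1a1, Rps27, Rps29 and Rpl13a were not among the genes of nearly unique sequence, whereas Rps28 (6.0% shared) and Rps3 (1.8% shared) were. Among genes lower in both genotypes the largest average difference of those named was that of Hnrnpu (-2.15). Hnrnpu, a nuclear RNA-binding scaffold protein, was at 72.8 FPKM against 399 to 421 in WT and 84.9 against 290 to 314 in EED-/-, with no overlap between sets. Homer2, a synaptic scaffold protein, was at 2.1 against 6.2 to 7.2 in WT and 4.1 against 15.6 to 17.2 in EED-/-. Pet100, an assembly factor of cytochrome c oxidase that overlaps another gene's transcript, was at 14.2 and 10.6 against 37.1 to 48.8. Prss23, a serine protease, was at 2.4 against 14.1 to 14.9 in WT and 3.3 against 7.1 to 8.5 in EED-/-.

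Setting aside every gene with 10% or more of its 50-mers in another gene, elsewhere or overlapping, left 10416 genes, of which 22 were higher and 17 lower in both genotypes. Among the 22, 7 were also at least 2-fold higher in WT mESC replicate 1 and 2-fold lower in EED-/- mESC replicate 1, as the copied genes were, and 15 were not. The first 7 included Hspa14, Cmah and Cdk5rap2. Cmah, a sialic acid hydroxylase, was at 29.5 FPKM against 12.3 to 15.6 in WT and 207 against 26.1 to 30.4 in EED-/-, and at 51.6 and 2.0 in WT mESC replicates 1 and 2. The other 15 included the epiblast gene Fgf5, the homeobox gene Msx1, the kinase gene Pim2 and the neuropeptide precursor gene Trh. This split depends partly on level. Fgf5 and Lpar4 stayed under 1 FPKM in every mESC library and could not reach 2-fold on the log2(FPKM + 1) scale. Cd59b and Chchd4, also among the 15, moved in the directions of the 7 but short of 2-fold in EED-/- mESC. Trh moved the other way in WT mESC. Among the 17 lower genes, 8 were at least 2-fold lower in WT mESC replicate 1 and 2-fold higher in EED-/- mESC replicate 1. These included Rps28, Rps3, Deaf1 and Spcs2, and the other 9 did not reach both.

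Fgf5 and Pim2, of the formative and primed epiblast list, were called higher in both genotypes. Fgf5 (GRCm38 chr5:98254184-98277030), a ligand that marks the epiblast after it leaves the naive state, was at 5.0 FPKM against 0.8 to 0.9 in WT and 7.4 against 1.2 to 1.7 in EED-/-. Pim2, a serine/threonine kinase, was at 136 against 33.8 to 37.3 in WT and 126 against 17.8 to 26.0 in EED-/-. Pim2 did not differ at this size between the mESC replicates, where it stayed between 12.7 and 19 FPKM. Fgf5 stayed between 0.04 and 0.4 FPKM in mESC, too low to reach the threshold there. Dnmt3b, the de novo DNA methyltransferase of that stage, was at 102 against 49.7 to 52.9 and 113 against 52.4 to 58.6, and Pou3f1, a POU factor of epiblast and early neural cells, at 8.7 against 3.6 to 3.7 and 6.5 against 2.9. Dnmt3b reached the threshold in EED-/- only and Pou3f1 in WT only. With genotype as a term the difference of Pou3f1 was 1.0006, just inside the threshold, and its call was lost with quantile normalization (0.94), with a median shift (0.92) and without replicate 3 (0.99). Of the 13 tested genes of the list, 3 were called higher and none lower with genotype as a term, beside 2.00% and 0.686% of all tested genes. The list's medians were 0.13 in WT and 0.95 in EED-/-. Lef1, an effector of WNT signalling, and the NODAL inhibitors Lefty1 and Lefty2 belonged to the list as well and were called in EED-/- only.

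Other shared differences touched signalling and patterning. Fgf15, an FGF ligand of the anterior neural plate, was at 8.4 FPKM against 2.7 to 3.2 in WT and 7.1 against 2.1 to 2.6 in EED-/-. It was not among the genes of nearly unique sequence. Msx1, a target of BMP signalling in the dorsal neural tube, was at 5.8 against 1.7 to 2.2 and 6.9 against 2.4 to 3.3. Trh was at 19.6 against 3.6 to 5.1 and 99.2 against 14.5 to 19.6. On the lower side, Crabp1, which binds retinoic acid in the cytoplasm, was at 25.3 against 50.8 to 54.6 in WT and 119 against 278 to 357 in EED-/-. Usp29, an imprinted gene, was at 0.3 against 2.8 to 3.9 and 1.0 against 6.9 to 7.6. Its imprinted neighbour Peg3 was at 11 against 33.9 to 37.1 in WT and 76.0 against 135 to 150 in EED-/-, where the difference (-0.88) was under the threshold.

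How the first-minus-later difference compared between genotypes was described with an interaction term, the difference in EED-/- minus that in WT. It is built from the libraries that the split was chosen on, and with 1 first library in each genotype, genotype and library cannot be told apart. Past the threshold of an adjusted p under 0.05 by limma, 1703 genes (13.3%) had a positive and 2118 (16.5%) a negative interaction, and 688 of these 3821 genes reached 1 on the log2 scale. Without replicate 4 of both genotypes, 2358 genes passed. Only the spread of replicates 2 to 4 enters this threshold, and none between first libraries. Below, genes with a positive or negative interaction are those past it. The list counts that follow stand beside 2.74% higher and 1.87% lower over all tested genes in WT, 2.92% and 1.03% in EED-/-, and 13.3% positive and 16.5% negative interactions. The members of lists written from textbook knowledge are described next, by role.

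Forebrain and eye regulators divided by gene in the first WT library, with 4 of 25 tested members called higher and 4 lower. Six3 (GRCm38 chr17:85613608-85629302), which holds the anterior forebrain by repressing Wnt1, was at 25.7 FPKM in WT replicate 1 against 5.2, 5.3 and 5.1 in replicates 2 to 4, and at 12.8 against 14.1, 12.9 and 13.8 in EED-/-. The WT sets were far apart and replicate 1 lay just below the others in EED-/-, with an interaction of -2.19 ± 0.11 (SE). Hesx1, a homeobox repressor of the anterior neural plate, was at 77.6 FPKM against 12, 15.8 and 15.4 in WT and 4.8 against 3.8, 3.4 and 2.5 in EED-/- (interaction -1.89 ± 0.27). Lhx5 was at 19.7 against 4.8 to 6.0 in WT and 1.4 against 0.5 to 0.7 in EED-/-, and Fezf2, a forebrain zinc-finger factor, at 28.8 against 12.2 to 13.9 and 3.1 against 1.8 to 2.0. These were the calls on the higher side in WT. Calls on the lower side included Nr2f1, Nr2f2 and Dmrta2, regulators of later forebrain regions. Nr2f1 (chr13:78188973-78199757) was at 2.9 FPKM against 40.5 to 42.0 in WT and 8.6 against 7.7 to 8.6 in EED-/-, with an interaction of 3.54 ± 0.11. Of the 25 tested members, 9 had a positive and 9 a negative interaction, and the list's medians were 0.14 and 0.13.

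Genes of the midbrain and its border with the hindbrain had interactions in 1 direction. Of 18 tested, 15 had a positive and none a negative interaction, with a median difference of -0.41 in WT and 0.59 in EED-/-. Wnt1 (GRCm38 chr15:98789857-98793837), the ligand expressed at that border, was at 34.6 FPKM in WT replicate 1 against 208, 180 and 184 in the later WT libraries, and at 8.8 against 6.5, 7.0 and 6.7 in EED-/- (interaction 2.77 ± 0.12). Gbx2, which sets the hindbrain side of the border, was at 0.5 against 5.0, 4.8 and 5.4 in WT and 6.0 against 1.8, 2.1 and 2.0 in EED-/-, so its order was opposite in the 2 genotypes. En1 was at 16.4 against 34.9 to 42.5 in WT and 2.9 against 1.6 to 1.7 in EED-/-. Fgf8, the FGF ligand of the border, was at 0.3 against 3.8 to 5.3 in WT and 10.7 against 5.3 to 7.1 in EED-/-. In the roof plate list, Wnt3a was at 0.6 against 12.7 to 14.3 in WT and 0.2 to 0.4 in all EED-/- libraries. Rspo2, an enhancer of WNT signalling, was at 0.2 against 4.1 to 5.1 in WT and 0.1 in each EED-/- library.

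Pan-neural and proneural genes divided by gene in WT. The radial glial genes Rfx4 and Fabp7 were lower in WT replicate 1, at 5.7 FPKM against 30.4 to 34.8 and at 0.4 against 4.5 to 6.7. In EED-/- both were higher in replicate 1, at 1.6 against 0.9 to 1.0 and at 2.7 against 0.8 to 1.6, without reaching the threshold there. Neurog2, which drives neuronal differentiation, was at 9.7 against 1.6 to 2.2 in WT and 0.2 to 0.4 in all EED-/- libraries. Of 20 tested proneural and neuronal genes, 2 had a positive and 9 a negative interaction. The summed level of the 4 measured markers of postmitotic neurons was 44 FPKM in the first against 48.5 to 53 in later WT libraries, and 62.6 against 84.9 to 89.8 in EED-/-.

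Targets of FGF signalling went in opposite directions. Of 14 tested feedback targets, 5 were lower and none higher in WT replicate 1, whereas 6 were higher and 1 lower in EED-/- replicate 1, and 11 had a positive and 1 a negative interaction. The list's median was -0.44 in WT and 0.87 in EED-/-. Dusp6 (GRCm38 chr10:99263231-99267489), the phosphatase that switches off ERK, was at 1.7 FPKM against 6.9, 6.6 and 7.4 in WT and 33.7 against 13.3, 17.0 and 15.2 in EED-/- (interaction 2.64 ± 0.17). Spry2, an inhibitor of receptor tyrosine kinase signalling, was at 2.1 against 7.8, 6.4 and 7.0 in WT and 10.9 against 3.8, 4.4 and 4.2 in EED-/-. Spred3 and the ETS factor gene Etv5 had the same opposite order, at 1.4 against 7.1 to 7.8 and 0.8 against 2.1 to 3.2 in WT, and at 12.5 against 3.4 to 5.1 and 36.5 against 11.4 to 16 in EED-/-. The member with a negative interaction was Fgfbp3, at 2.3 against 9.4 to 10.8 in EED-/- and 8.0 against 8.2 to 8.6 in WT. The bFGF dose in the protocol is the same for all AntNPC libraries.

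Of 14 tested WNT feedback targets, 9 had a positive and 2 a negative interaction, beside 13.3% and 16.5% of all tested genes. Axin2, a general target of the pathway, was at 27.6 FPKM against 47.0 to 51.6 in WT and 9.1 against 6.0 to 7.1 in EED-/-. Fzd10, a WNT receptor gene, was at 1.5 against 8.1 to 9.1 in WT and 5.1 against 2.1 to 2.8 in EED-/-. Nkd1, a WNT antagonist, was lower in both, at 5.8 against 19 to 19.4 and 5.9 against 9.8 to 11.6, and the EED-/- difference was under the threshold.

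**Figure D4:**
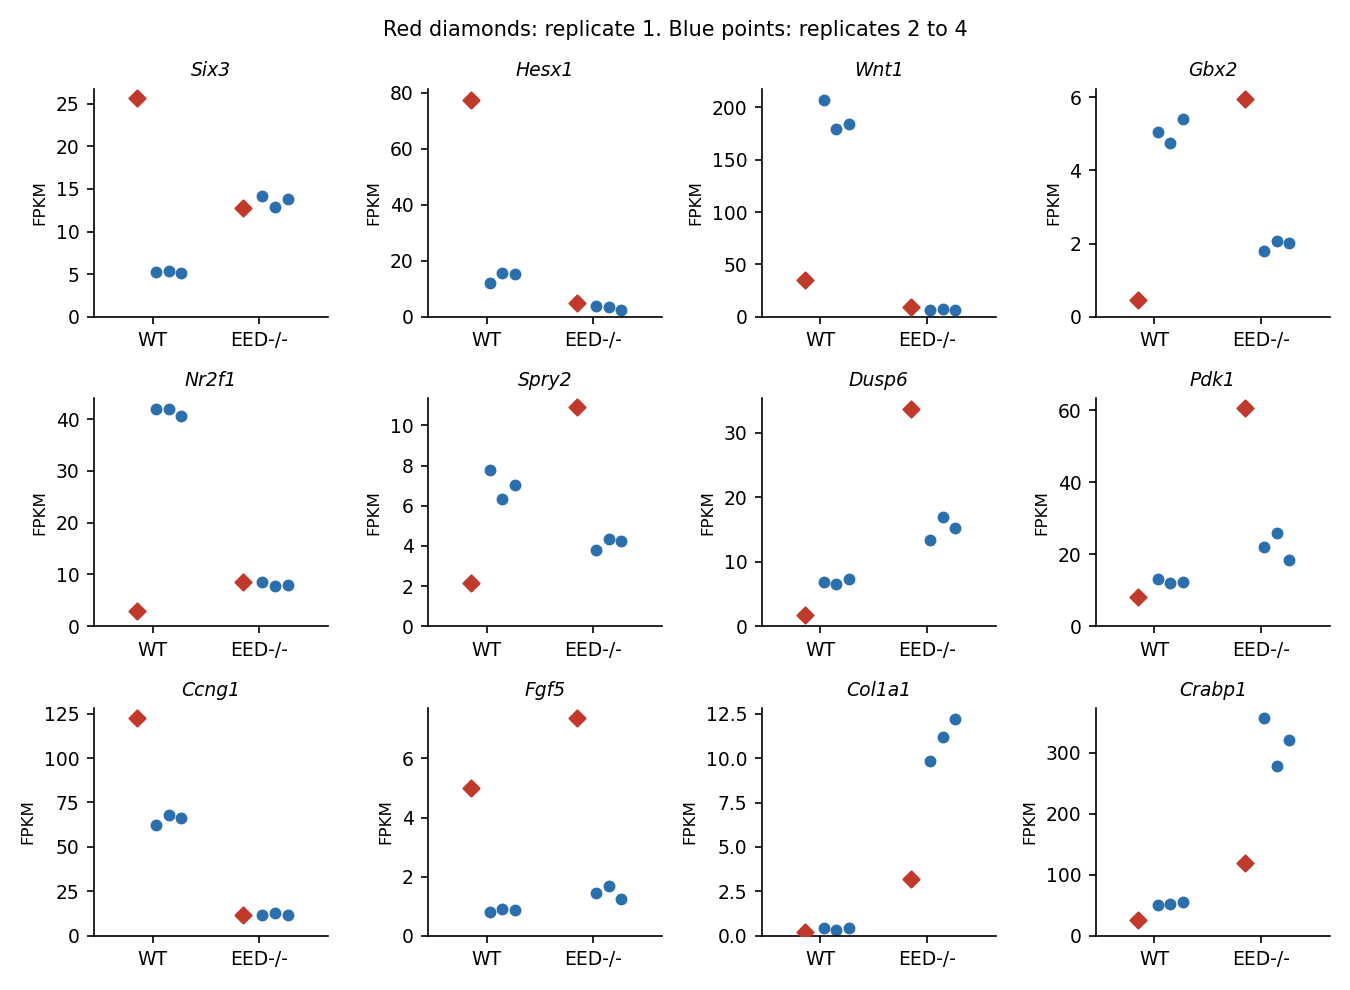
FPKM of 12 genes in the 8 AntNPC libraries, 1 panel per gene with a linear axis from 0; red diamonds are replicate 1 and blue points replicates 2 to 4 of WT (left) and EED-/- (right). Six3, Hesx1 and Ccng1 stand apart in WT only, Gbx2, Spry2 and Dusp6 have opposite orders in the 2 genotypes, and Fgf5 and Crabp1 have the same order in both.

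Many targets of the p53 tumour suppressor (gene Trp53) were higher in the first WT library. Of 23 tested, 10 were called higher in WT replicate 1 and none in EED-/-, and 18 had a negative and none a positive interaction. The median was 0.74 in WT and 0.00 in EED-/-, beside 0.06 and 0.02 over all tested genes. Plk2, a stress-induced kinase, was at 13.6 FPKM against 3.5 to 3.7 in WT and 3.5 against 3.2 to 3.8 in EED-/-. Btg2, which restrains proliferation, was at 50.2 against 19.1 to 19.9 in WT and 17.3 against 14.9 to 15.3 in EED-/-. The cell cycle inhibitor Cdkn1a was at 49.6 against 18.9 to 20.2 in WT and 6.6 against 3.0 to 3.2 in EED-/-. Cdkn1a was not among the genes of nearly unique sequence, and no tested member of the list shared at least 50% of its 50-mers. Of 22 proliferation genes, 1 was called in EED-/- and none in WT, with medians of -0.03 and 0.02.

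Some genes of the hypoxia response and glycolysis were higher in the first EED-/- library. Of 35 tested, 8 were called higher and none lower in EED-/- replicate 1, and 1 was called higher in WT, beside 2.92% and 2.74% of all tested genes called higher. The interaction was positive in 24 and negative in 4, and the median was -0.10 in WT and 0.63 in EED-/-. Pdk1, which restrains entry of pyruvate into the mitochondrion, was at 60.6 FPKM against 22.1, 25.8 and 18.4 in EED-/- and 8.0 against 13, 11.9 and 12.2 in WT (interaction 2.00 ± 0.21). Pfkp, a phosphofructokinase, was at 36.0 against 12.3 to 14.0 in EED-/- and 7.4 against 8.5 to 9.2 in WT. Pgk1 was at 477 against 195 to 245 in EED-/- and 364 against 333 to 375 in WT, and shares 68.0% of its 50-mers with other genes. The WT call was the glucose transporter Slc2a1, at 521 against 236 to 243 in WT and 321 against 223 to 250.5 in EED-/-.

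Cholesterol synthesis genes shifted by smaller amounts in opposite directions. Of 24 tested, 23 lay above 0 in WT and 3 in EED-/-, beside 7374 and 6807 of all 12829 tested genes. None had a positive and 20 had a negative interaction, with medians of 0.31 in WT and -0.49 in EED-/-. Hmgcs1, an early enzyme of the pathway, was at 389 FPKM against 286 to 307 in WT and 249 against 438 to 486 in EED-/-. Fdps, which makes farnesyl diphosphate, was at 284 against 217 to 223 in WT and 316 against 561 to 585 in EED-/-. Pmvk, in EED-/-, was the single call at the 2-fold threshold, at 54.9 against 120 to 126.

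Different pluripotency genes were called in the 2 genotypes, 3 of 23 tested higher in WT and 5 in EED-/-, and none lower. The median was -0.04 in WT and 0.51 in EED-/-. Pou5f1, which encodes OCT4, was at 47.3 FPKM against 13.3 to 15.0 in WT and 102 against 65.4 to 76.4 in EED-/-, and Nanog at 8.9 against 3.2 to 3.9 and 37.7 against 27.4 to 32. Both were called in WT only. Tdgf1, a NODAL co-receptor, was at 15.0 against 1.8 to 3.2 in EED-/- and 0.2 against 0.7 to 1.1 in WT, and Fgf4 at 7.9 against 2.6 to 3.6 and 0.2 against 0.2 to 0.5. Of the 23, 22 were above 0 in EED-/- and 10 in WT, beside 6807 and 7374 of all 12829 tested genes. In these bulk samples fewer cells of a type and less RNA per cell cannot be told apart.

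Most fibroblast and contractile genes were lower in the first EED-/- library. Of 13 tested, 8 were called lower and none higher in EED-/- replicate 1, with a median of -1.14 in EED-/- and -0.13 in WT. In WT replicate 1, Col1a2 and Vim were called lower and Thy1 higher. Col1a2, a fibrillar collagen gene lower in both genotypes, was at 4.5 FPKM against 9.5 to 10.9 in WT and 13.3 against 41.1 to 51 in EED-/-. Col1a1, of the same collagen, was at 3.2 FPKM against 9.8, 11.2 and 12.2 in EED-/- and at 0.2 to 0.4 in WT. Acta2, smooth muscle actin, was at 12.4 against 26.0 to 33 in EED-/- and 1.0 to 1.7 in WT. Vim, which encodes an intermediate filament protein, was at 27.3 against 60.4 to 66.7 in WT and 91.3 against 143 to 150 in EED-/-. The 4 fibroblast markers summed to 31.0 FPKM in the first against 83.2 to 104 in the later EED-/- libraries, and to 6.0 against 11.2 to 12.8 in WT. Trophoblast markers, led by Krt8, summed to 131 against 174 to 203 in EED-/-, mesoderm markers to 12.8 against 10.3 to 11.2, endoderm markers to 13.9 against 15.8 to 18 and neural crest markers to 13.8 against 16.9 to 19.2. In WT each of the last 3 sums stayed under 2.8 FPKM. The part of such cells in the other EED-/- differences was not tested. Genes of the heart and limb mesoderm, Hand1 and Hand2, were lower in EED-/- replicate 1, at 4.9 against 12.9 to 14.3 and 2.4 against 6.1 to 7.1. Hand1 is also counted in the trophoblast sum. The yolk sac and liver gene Afp was higher, at 19.9 against 1.3 to 3.4.

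**Figure D5:**
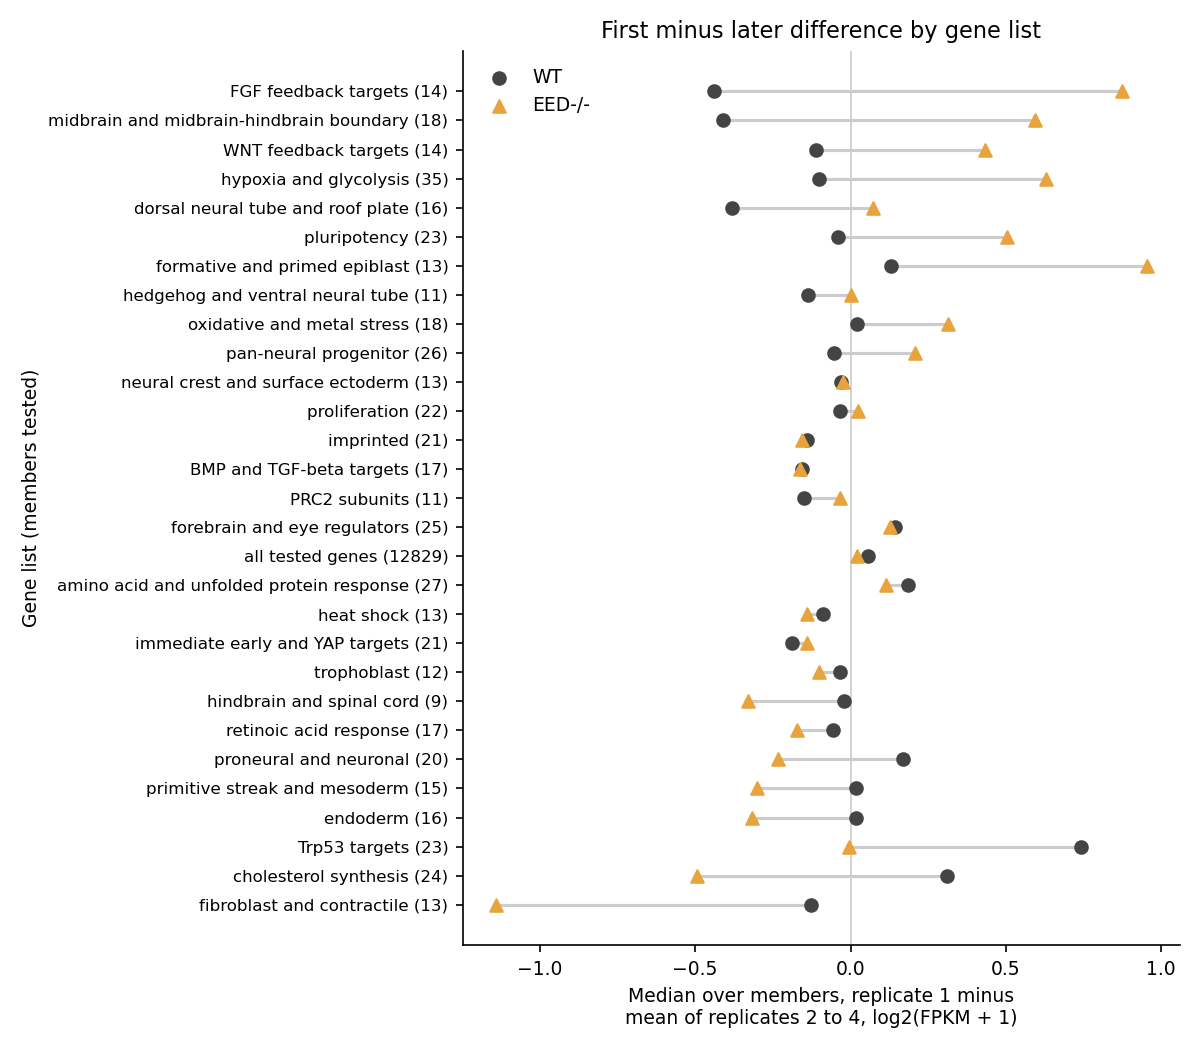
Median first-minus-later difference over the tested members of each gene list on the log2(FPKM + 1) scale, in WT (circles) and EED-/- (triangles), with the number tested in parentheses and all tested genes as a reference row. FGF feedback targets (-0.44 and 0.87) and midbrain genes (-0.41 and 0.59) lie at the top, and Trp53 targets (0.74 and 0.00), cholesterol synthesis (0.31 and -0.49) and fibroblast genes (-0.13 and -1.14) at the bottom.

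No call was made in either genotype among 13 heat shock and 11 PRC2 subunit genes, and the 12 trophoblast and 13 neural crest genes gave 1 and 2 calls over both genotypes. Among 27 genes of the amino acid and unfolded protein response, Asns, Mthfd2 and Pycr1, enzymes of asparagine, folate and proline metabolism, were called higher in WT replicate 1, at 123 FPKM against 51 to 56.5, 20.3 against 7.7 to 9.6 and 29 against 11.8 to 12.1. In EED-/- these 3 stood at 129 against 115 to 127, 91.4 against 74.8 to 82.4 and 30.8 against 30.9 to 33.8. Of 11 hedgehog and ventral neural tube genes, 3 were called lower in WT, 5 had a positive and none a negative interaction. Among them Dbx1, a homeobox gene of interneuron progenitors, was at 1.7 FPKM against 5.6 to 7.3 in WT and 6.8 against 3.3 to 4.0 in EED-/-, and Boc, a hedgehog co-receptor, at 3.8 against 8.8 to 9.8 and 3.6 against 5.2 to 5.5. Of 17 BMP and TGF-beta targets, 1 was called higher and 2 lower in WT, and 3 higher in EED-/-. The 2 were Id1 and Id3, inhibitors of bHLH factors, at 17.3 against 42.9 to 44.5 and 61.2 against 142 to 147 in WT, and at 74.2 against 79.2 to 102 and 86.3 against 75.8 to 102 in EED-/-. Of 16 endoderm genes, 2 had a positive and 8 a negative interaction, and the calls, both higher in EED-/-, were Afp and the transthyretin gene Ttr, at 5.0 against 1.0 to 1.3. Of 9 hindbrain and spinal cord genes, 2 were called lower in WT and 1 in EED-/-, among them the homeobox gene Meis1 in WT, at 1.0 against 3.3 to 3.9. Of 17 genes of the retinoic acid response, 2 were called higher and 1 lower in WT, and 1 higher and 2 lower in EED-/-. The retinoic acid hydroxylase gene Cyp26a1 was at 48.1 against 15.6 to 16.7 in WT, and Cyp26b1 at 2.0 against 8.7 to 10.7 in EED-/-.

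The difference between the EED-/- and WT lines could be read in each set with no shared library. With 1 line per genotype, line and genotype cannot be told apart. In replicates 2 to 4, 1861 genes (14.5%) differed between EED-/- and WT by limma at the same thresholds, 1410 higher and 451 lower. In the pair of first libraries 1801 of them (96.8%, exact 95% interval 95.9% to 97.5%, counting genes as independent, which they are not) had the same sign, and 1165 (62.6%) the same sign at 2-fold or more. The median difference of the 1410 genes was 1.45 in the later and 1.27 in the first libraries, and that of the 451 genes -1.41 and -1.15. Only 8 of the 1861 had the opposite sign at 2-fold or more: Ms4a4d, Selt, Pax8, Fzd10, Nr2f1, Fabp7, Gpr56 and Gbx2. Nr2f1, for example, was 2.23 lower in EED-/- than in WT in the later set on the log2(FPKM + 1) scale, and 1.31 higher in the first.

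Among the 5 genes near the poised enhancers that the study targeted, the set changed the size of the genotype difference and, for Six3, its direction. Six3 was 1.24 ± 0.05 (SE) higher in EED-/- in the later libraries and 0.96 lower in the first pair. Lhx5 was lower in EED-/- in both, by values of -1.97 ± 0.09 and -3.11, as were Lmx1b (-2.07 ± 0.05 and -1.49) and Wnt8b (-3.38 ± 0.06 and -2.49). Wnt8b was at 8.7 FPKM in WT replicate 1 against 10.8 to 11.4 and at 0.7 in EED-/- replicate 1 against 0.1 to 0.2. Sox1 differed little, at -0.34 ± 0.06 and -0.09, and its interaction did not pass the threshold.

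The deposited group means combine both sets. The authors' mean FPKM equalled the average of all 4 libraries to within 0.00033, so replicate 1 carries 1 of 4 equal shares in each. In the authors' deposited table the mean FPKM of mt-Co3 is 322 in WT and 323 in EED-/-, while the authors' mean read count of the same gene is 15.2 and 13.6. For mt-Cytb the authors' deposited table gives a mean FPKM of 2864 and 2430 and a mean read count of 155560 and 121900. For Hspa14 it gives a mean FPKM of 18.1 and 22.2, between the level of replicate 1 and that of the later libraries in each genotype.

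Some exact zeros were tied to single libraries. Gapdh was listed at 0 in WT replicate 1 and at 1820 to 2778 FPKM in the other 7 AntNPC libraries, and Rpl22 was listed at 0 in EED-/- replicate 1 and at 812 to 1445 in the others. Such a 0 can be a failed estimate. Of genes that reached 5 FPKM in another AntNPC library, 22 were listed at 0 in WT replicate 1 and 34 to 43 in each later WT library, and 2 in EED-/- replicate 1 against 29 to 35 in each later one.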

How the data were processed

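Polyadenylated RNA of 12 libraries was sequenced, and the 8 AntNPC libraries were compared by replicate number and genotype. The authors deposited 1 table of 21253 genes whose per-library values were taken as FPKM, made with TopHat2 and Cufflinks per the submitters' processing notes. The header does not name the unit. The authors also deposited a mean FPKM per group and a mean read count per group, a normalized score that is not whole. The submitters' notes list DESeq2 for 8 libraries, and the authors' p-values were not used. Tool versions, annotation and settings are not stated. Every per-library column was used.

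Values were transformed as log2(FPKM + 1). Genes with at least 1 FPKM in at least 2 fitted libraries were fitted with limma 3.58.1 (R 4.3.3) with an intensity trend: genotype and set (2 against 6), then the 4 means of genotype and set with the interaction, then all 12 libraries for mESC. P-values were adjusted over all tested genes. For the first-minus-later contrasts and their interaction the thresholds only sort genes, since the split was chosen on these values. Depth is unknown from FPKM, so no counting interval is given for a level. The fit was tested on simulated data. Of the table's genes, 21149 matched GENCODE M21 by identifier, and 50-mer shares were computed on both strands of the longest transcript (12813 of 12829 tested genes have one).

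The members, gene lists and alternatives were chosen with earlier results of these data known. Shared genes were named by a rule (10 largest per direction called in both genotypes, at 5 FPKM or more, no exact 0, no predicted, RIKEN, pseudogene-style or mitochondrial symbol), as were 6 interaction genes per direction, up to 5 called members per list and direction (otherwise the largest 2), Eed and 5 study targets. The 50-mer classes, the mitochondrial genes, the copy pairs, the genes with unique sequence and list members called in 1 genotype were chosen after their values were seen. Same-numbered libraries among replicates 2 to 4 deviated together at r = -0.03, 0.13 and -0.25, so numbers do not pair samples. Alternatives were another pseudocount, filter, scaling, trend setting, the replicate block and leaving out libraries or genes. Some genes among those called are not reported here.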

Additional observations from a re-analysis of the deposited data

Results flagged for a closer look

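The first-minus-later difference was unlike in the 2 genotypes in 3821 genes at limma's interaction threshold, an adjusted p under 0.05. This describes the libraries the split was chosen on, and with 1 first library in each genotype, genotype and library cannot be told apart. The values that follow are the difference in EED-/- minus that in WT on the log2(FPKM + 1) scale, for the genes with the largest interactions among those named by the rule. On the positive side these were the nuclear receptor gene Nr2f1 (3.54), the hindbrain border gene Gbx2 (3.29), the FGF feedback gene Spred3 (3.13), the adhesion receptor gene Gpr56 (2.99), the WNT receptor gene Fzd10 (2.79) and Wnt1 (2.77). Gpr56 was at 1.6 FPKM in WT replicate 1 against 20.3 to 23.2 in the later WT libraries, and at 9.3 against 9.6 to 10.9 in EED-/-. On the negative side these were Ms4a4d (-2.42), the glypican gene Gpc4 (-2.32), the selenoprotein gene Selt (-2.30), Six3 (-2.19), the surface antigen gene Thy1 (-2.16) and Glipr2 (-2.0). Gpc4 was at 44.1 FPKM in WT replicate 1 against 11.3 to 13.2, and at 15.8 against 22.6 to 25.3 in EED-/-. Selt was at 682 against 119 to 143 in WT, and at 309 in EED-/- replicate 1, within the range of 262 to 312 in the later EED-/- libraries.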

How the results depend on the processing

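The counts kept within 1.5 times of their main value except as follows. With a pseudocount of 0.1 the genes lower in the first libraries numbered 167 (2 against 6) and 58 (both genotypes). The sign of the EED-/- minus WT difference then repeated in 95.2%. Without the EED-/- first library 240 genes were lower, the same number as in WT alone, since only the WT difference is left. Without 1 of replicates 2 to 4 between 59 and 73 were lower. With genes sharing 10% or more of their 50-mers left out, an alternative chosen after seeing the data, 38 genes were higher and 52 lower with genotype as a term, and 22 and 17 in both genotypes. Interactions numbered 2358 to 3268 without 1 of replicates 2 to 4, the fewest without replicate 4. The mESC count of 30 became 12 with a pseudocount of 0.1 or without the trend, 47 with no filter, 11 at 5 FPKM or without genes at an exact 0, 84 with quantile normalization, and 0 by limma on the mESC libraries alone, where 44 genes had an unadjusted p under 0.05.

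With the replicate block, which does not pair these samples, 248 genes were higher, 70 lower, and 3200 had an interaction. First minus later, Lmx1b (main -0.01) turned to 0.0038 with a pseudocount of 0.1 and was -0.30 to 0.28 with 1 library or replicate left out. Six3 (main 1.01) was -0.088 without the WT and 2.11 without the EED-/- first library. Wnt8b was -0.054 with quantile normalization, -0.31 without the EED-/- and 0.58 without the WT first library. Of the other values for named genes, 879 kept direction and call, 34 lost the call and 1 gained it. Hesx1 and Ctgf lost the call without any 1 of replicates 2, 3 or 4. The cause was not tested. Depth, unknown here, limits low genes.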

Other observations

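Sepn1 and Gpx4, outside the gene lists and singled out after their values were seen, varied among later libraries of 1 genotype. Sepn1 was at 1078 FPKM in the first WT library against 303 to 313 in later ones, but at 155 in EED-/- replicate 1 and 98.2, 191 and 568 in replicates 2 to 4. Gpx4 was at 193 in WT replicate 1 and 337, 391 and 849 in the later WT libraries, and shares 61.7% of its 50-mers with another gene. The sets overlapped for Sepn1 in EED-/- and did not in WT.

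Among genes with nearly unique sequence that averaged 5 FPKM or more, the median first-minus-later difference was 0.17 in WT and 0.11 in EED-/- in the quartile of transcripts lowest in GC content, and -0.05 and -0.10 in the highest. These medians are small beside the differences named for single genes, and their part in those differences was not tested.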
